A study of Caenorhabditis elegans with 2 samples.

Results

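The genes described here are 8 that set larval stage identity in Caenorhabditis elegans: lin-14, lin-28, hbl-1, lin-46, lin-41 and lin-29 of the heterochronic pathway, and alg-1 and alg-2, which encode the Argonaute proteins of the microRNA pathway. They were listed by name, not by any measured value, among 19973 protein-coding genes on the nuclear chromosomes. Earlier results of these data were known when the list was made. ELT-3, a GATA-type zinc finger transcription factor of the epidermis, was mapped by sequencing of immunoprecipitated chromatin (ChIP-seq) in a single group of whole L3 larvae of mixed sex, with 2 biological replicates. All animals were of strain OP75, which carries unc-119(ed3) III and the insertion wgIs75, a transgene whose ELT-3 protein ends in a GFP and FLAG tag. There was no second genotype, stage or treatment, and the whole animal was the sample, so the tissue in which ELT-3 occupied a site is not known, and fewer bound cells cannot be told apart from weaker binding per cell.

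In the heterochronic pathway, transcription factors and RNA-binding proteins hold epidermal seam cells at an early larval fate until microRNAs silence them, and a late factor, LIN-29, then starts the adult program. LIN-14, LIN-28 and HBL-1 act early, LIN-46 opposes the early factors, and LIN-41 delays LIN-29. ALG-1 and ALG-2 carry the microRNAs to their target messages. Seam cells and the surrounding hypodermis form the worm epidermis, where ELT-3 is known from the non-seam cells.

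The window of each gene ran from 5000 bases upstream of its first annotated start to 1000 bases past its end. Regions were taken from 4 lists on ce11: the regions kept by the irreproducible discovery rate procedure (IDR regions), the list called on both replicates pooled, and the list of each replicate. The IDR regions have signals of 29.5 to 133 (median 36.8), and they are the strongest of the 30000 pooled regions. A region of a replicate list is called top-ranked here if it ranks at least as high in that list as the last IDR region does in the pooled list. The pooled list reaches down to 10.3, with a median of 13.1, and holds background as well as peaks. The signal is the authors' peak caller's own value for a region, on a scale the labels do not name. Each value therefore stands beside its rank in its own list, where 1 is the highest. No read counts were at hand and sequencing depth is unknown.

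ELT-3 regions that passed the IDR threshold lay at lin-14, which had 2, and at hbl-1 and alg-1, which had 1 each, together 0.517% of all IDR regions. Windows of lin-28, lin-29, lin-41, lin-46 and alg-2 held none. The count was thus 3 of 8 genes (37.5%, 95% exact Clopper-Pearson interval 8.52 to 75.5), beside 6.31% of all coding genes by the same rule. A gene with a long window can hold a region more easily. Among coding genes with windows of at least 20 kb the share was 13.0%, and lin-14 but not lin-29 was of that kind with a region. Windows of 10 to 20 kb held one in 8.31% of coding genes and in 2 of 4 here (hbl-1 and alg-1, not lin-41 and alg-2), and windows under 10 kb in 5.59% of coding genes and in 0 of 2 here (lin-28 and lin-46). All 3 genes with a region lie on the X chromosome, where 9.23% of coding genes had one, and the 5 others lie on autosomes, where 5.85% did. A count of 0 of 5 leaves room for a share as high as 60% (3 counts of the total). No test was made of these counts, because the genes were chosen with results known. For the same reason the interval is no test against the share of all coding genes.

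The DNA at the IDR regions, and at some regions below the threshold that hold a match to the sequences defined next, shows which GATA sequences lie there. Not every stronger region below the threshold is shown. That of hbl-1 1880 bases upstream (24.4, rank 1401) and that in the lin-14 3′ UTR (23.2, rank 1677) held no match around the pooled summit. Windows around the replicate 1 and replicate 2 summits of that hbl-1 region held 1 match each. The recognition sequence of GATA factors, WGATAR (A or T, then GATA, then A or G), was searched for on either strand up to 100 bases from each summit, together with GATAAG, which was added after the data were seen and overlaps WGATAR where A or T stands before it. Each line gives the plus strand of ce11 (from the RefSeq WBcel235 sequence), with matches to WGATAR or GATAAG, on either strand, in capitals. For lin-14, hbl-1 and lin-29 the whole window of 201 bases is shown, and for alg-1, whose windows touch the 5′ UTR, 30 bases at the site.
lin-14, first region, chrX:11479215-11479415: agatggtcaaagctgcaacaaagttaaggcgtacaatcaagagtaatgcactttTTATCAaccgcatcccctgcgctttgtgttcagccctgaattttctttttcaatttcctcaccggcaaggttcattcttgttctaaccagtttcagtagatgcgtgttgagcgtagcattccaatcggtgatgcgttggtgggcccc
lin-14, second region, chrX:11482853-11483053: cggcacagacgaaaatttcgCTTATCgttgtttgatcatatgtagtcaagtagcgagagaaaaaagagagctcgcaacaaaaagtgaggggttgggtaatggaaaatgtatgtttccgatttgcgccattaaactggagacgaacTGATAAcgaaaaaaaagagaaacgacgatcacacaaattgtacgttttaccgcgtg
hbl-1, downstream IDR region, chrX:5828168-5828368: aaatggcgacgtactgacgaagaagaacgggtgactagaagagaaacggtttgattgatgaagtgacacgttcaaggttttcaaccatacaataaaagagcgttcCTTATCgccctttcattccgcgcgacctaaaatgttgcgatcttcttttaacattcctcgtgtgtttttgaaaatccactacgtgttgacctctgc
hbl-1, upstream region below the threshold, chrX:5821027-5821227: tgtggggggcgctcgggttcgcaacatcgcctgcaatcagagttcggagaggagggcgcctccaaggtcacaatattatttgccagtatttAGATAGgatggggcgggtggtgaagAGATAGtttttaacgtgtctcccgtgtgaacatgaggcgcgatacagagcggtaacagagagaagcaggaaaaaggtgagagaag
alg-1, IDR region, chrX:13949554-13949583: cataaacatctgtactaaagaagTTATCAt
alg-1, region below the threshold, chrX:13950857-13950886: tctcgcgacacaCTATCTctgccgtctcct
lin-29, strongest region, below the threshold, chrII:11936756-11936956: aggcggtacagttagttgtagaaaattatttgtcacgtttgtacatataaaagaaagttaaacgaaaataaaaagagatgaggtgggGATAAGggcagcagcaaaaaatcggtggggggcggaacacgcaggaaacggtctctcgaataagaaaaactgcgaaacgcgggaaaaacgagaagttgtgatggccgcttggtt

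At the 3 IDR regions of lin-14 and alg-1 the match was the same letters, TGATAA. Of the 4 IDR regions, 3 held WGATAR (75%, exact interval 19.4 to 99.4), beside 575 of all IDR regions (74.3%, 71.1 to 77.3), and the same 3 held TGATAA, beside 58.1% of all IDR regions. Each of the 3 had a single WGATAR, which is so in 167 IDR regions (21.6%). The nearest base of the match lay 41 bases from the summit in the first lin-14 region, 45 in the second and 94 at alg-1, near the edge of the window searched. The hbl-1 IDR region held no WGATAR but a GATAAG 5 bases from its summit, preceded by C. GATAAG was present in 2 of the 4 (the second of lin-14 and that of hbl-1), beside 43.7% of all IDR regions and 10.3% of all pooled regions below the threshold. Matches describe these windows only and do not show which bases ELT-3 contacted.

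lin-14 (WBGene00003003, chrX:11465560-11485871, plus strand), which encodes a nuclear DNA-binding protein of early larval fates, had the most regions of the 8 genes. Its stronger IDR region, at chrX:11479145-11479484, had a pooled signal of 37.5 (rank 365), with 26.4 in replicate 1 (rank 262) and 11.1 in replicate 2 (rank 1539). The summit was in an intron, 13755 bases past the first annotated start and 1046 bases upstream of the start of the shorter annotated transcript. That shorter transcript begins at position 11480361. The other IDR region, at chrX:11482783-11483122, had a pooled signal of 31.3 (rank 646), with 15.5 in replicate 1 (rank 1401) and 15.2 in replicate 2 (rank 475). It lay in an intron as well, 2592 bases past the internal start, and its window also held 1 match to GAGAGA, which was present in 34.4% of all IDR regions, on either strand. The first region was thus top-ranked in replicate 1 alone, and the second in replicate 2 alone. Between them, at chrX:11481071-11481410, a weaker pooled region (15.1, rank 8747) held 4 WGATAR sequences, more than any other pooled region in the windows of the 8 genes, and had a summit in replicate 1 (12.9, rank 2872) and none in replicate 2.

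The window of lin-14, 26.3 kb long, held 18 pooled regions in all, or 6.84 per 10 kb, against a median of 2.83 over all coding genes. This density was not particular to lin-14. alg-1 had 7.6, lin-28, which had no IDR region, 6.54 and hbl-1 6.03. The remaining genes ranged from 2.54 (lin-46) to 4.38 (lin-41), and the median of the 8 genes was 5.2. The strongest below the threshold was in the 3′ UTR, the part of the message through which the microRNA lin-4 silences lin-14, at chrX:11485025-11485364. It had a pooled signal of 23.2 (rank 1677), 17.7 in replicate 1 (rank 900) and 5.91 in replicate 2 (rank 15343), and no WGATAR. At the first annotated start there was only a weak region, with its summit 113 bases upstream (12.7, rank 16476). Signal at lin-14 was therefore highest on either side of the start of the shorter transcript, and the region at the start of the longer one ranked in the weaker part of the list.

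**Figure D1:**
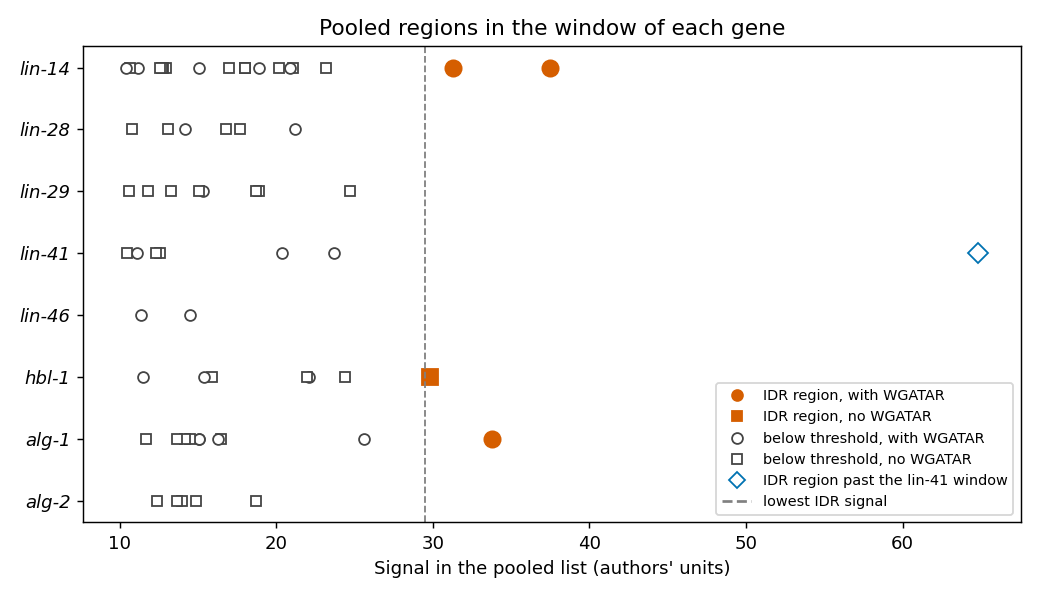
Signal of every pooled region (authors' units, x axis) in the window of each of the 8 genes (y axis), with 1 point per region, filled for IDR regions, round where WGATAR lies within 100 bases of the summit and square where not. Only lin-14, hbl-1 and alg-1 have points right of the lowest IDR signal (dashed, 29.5), and the diamond is the IDR region of signal 64.8 past the end of the lin-41 window.

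lin-28 (WBGene00003014, chrI:8407630-8410804, minus strand), which encodes an RNA-binding protein of early larval fates, had 6 pooled regions and no IDR region. The strongest was at chrI:8411717-8412056, with a pooled signal of 21.2 (rank 2268), 12.3 in replicate 1 (rank 3403) and 7.65 in replicate 2 (rank 6336), 1083 bases upstream of the first start. That summit was nearer the start of F02E9.7 (535 bases upstream of it) than that of lin-28, and its window held 1 WGATAR. The next strongest, at chrI:8406614-8406953 (17.7, rank 4488), lay 846 bases past the gene end and 44 bases upstream of the start of F02E9.1. It had 8.06 in replicate 1 (rank 15634) and 8.65 in replicate 2 (rank 3946), the highest of lin-28 there. A further region, at chrI:8409913-8410252, lay in an intron 163 bases upstream of the internal start (16.8, rank 5648). Its signal was 13 in replicate 1 (rank 2807), the highest of lin-28 in that list, with no summit in replicate 2. The nearest IDR summit was 16.2 kb from lin-28, upstream.

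hbl-1 (WBGene00001824, chrX:5822142-5827755, plus strand) encodes a zinc finger transcription factor related to Hunchback. Its IDR region, at chrX:5828098-5828437, had a pooled signal of 29.8 (rank 750), close to the lowest IDR signal of 29.5, with 14 in replicate 1 (rank 2075) and 14 in replicate 2 (rank 651). The summit lay 513 bases past the end of the gene, outside annotated genes, and the nearest coding start was not that of hbl-1 but of acp-5, 1167 bases further on. Taken to the nearest coding start, this region would not count for hbl-1.

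Upstream of hbl-1 each replicate list had a top-ranked region, with its summit at a different place, and neither passed in the pooled list. Replicate 1 had a region with a signal of 21.2 (rank 508) whose summit lay 1019 bases upstream of the first start, and replicate 2 had one with 13.4 (rank 756) and the summit 1301 bases upstream. The summits were 282 bases apart. In the pooled list they appear as a pair of overlapping regions, chrX:5820957-5821296 (22.1, rank 1976) and chrX:5820670-5821009 (22, rank 1981), and neither of the pair had a summit of the other replicate inside it. The region with the replicate 1 summit held 2 WGATAR sequences, 4 and 16 bases from the summit, and the replicate 2 region held none but 1 GATAAG. Another region, 1880 bases upstream, had 24.4 in the pooled list (rank 1401), 13.3 in replicate 1 (rank 2486) and 11.7 in replicate 2 (rank 1258). The window around its pooled summit held neither WGATAR nor GATAAG. Windows around its replicate 1 and replicate 2 summits held 1 WGATAR each, near their edges. Thus 3 of the 7 pooled regions of hbl-1 lay within 2000 bases upstream of its first start.

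lin-46 (WBGene00003031, chrV:12968855-12970730, plus strand) encodes a gephyrin-like protein that opposes the early factors, and its strongest region was the weakest of the 8 genes in the pooled list and in replicate 1, while in replicate 2 that of alg-2 was weaker (4.46, rank 29242, against 7.14, rank 8368). Its 2 pooled regions had signals of 14.5 (rank 10077) and 11.4 (rank 22768). The stronger, with 7.74 in replicate 1 (rank 17750) and 6.74 in replicate 2 (rank 9868), lay past the end of lin-46 and 101 bases upstream of the start of pnn-1. Both replicate values there are near the medians of those lists, 8.18 and 5.91. The nearest IDR summit was 111 kb away.

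lin-41 (WBGene00003026, chrI:9334800-9342496, minus strand) encodes a TRIM-NHL RNA-binding protein that holds back LIN-29. No IDR region lay in its window, but a strong one lay just past it, with the summit 2165 bases beyond the gene end and so 1165 bases outside the window. That region, at chrI:9332465-9332804, had a pooled signal of 64.8 (rank 42), with 28.3 in replicate 1 (rank 194) and 35.3 in replicate 2 (rank 18), and it held 5 WGATAR sequences. It was stronger in the pooled list than any region inside the 8 windows and, unlike the 4 IDR regions there, was top-ranked in both replicates. The summit fell in the exon of a non-coding RNA gene, C12C8.8, and the nearest coding start, 4778 bases away, was that of cbl-1. Nothing in the lists ties it to lin-41. Inside the window, toward the same side, were pooled regions 115 bases (23.7, rank 1536, with 2 WGATAR) and 697 bases (20.4, rank 2618, with 1 WGATAR) past the gene end. The first had 13.5 in replicate 1 (rank 2371) and 6.41 in replicate 2 (rank 11742), and the second 10.1 (rank 7309) and 9.65 (rank 2567). Upstream of the start of lin-41 the strongest pooled signal was 12.6 (rank 16986), below the list's median.

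lin-29 (WBGene00003015, chrII:11917642-11935343, minus strand), the zinc finger transcription factor gene that starts the adult program in the epidermis, had 8 pooled regions and no IDR region. The strongest, at chrII:11936686-11937025, had a pooled signal of 24.7 (rank 1344), with 16.3 in replicate 1 (rank 1178) and 6.77 in replicate 2 (rank 9725). It lay 1513 bases upstream of the first start, and the window around its pooled summit held no WGATAR but a GATAAG 8 bases from that summit. The window around its replicate 2 summit held 2 WGATAR, and that around its replicate 1 summit held none. In replicate 2 the highest region of lin-29 was another, 3484 bases upstream (9.14, rank 3248). At the internal start of its short transcript, a pooled region with its summit 251 bases upstream had a signal of 15.1 (rank 8663). Even with a window of 23.7 kb, lin-29 had 3.38 pooled regions per 10 kb, against 6.84 for lin-14, and its nearest IDR summit was 118 kb away.

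**Figure D2:**
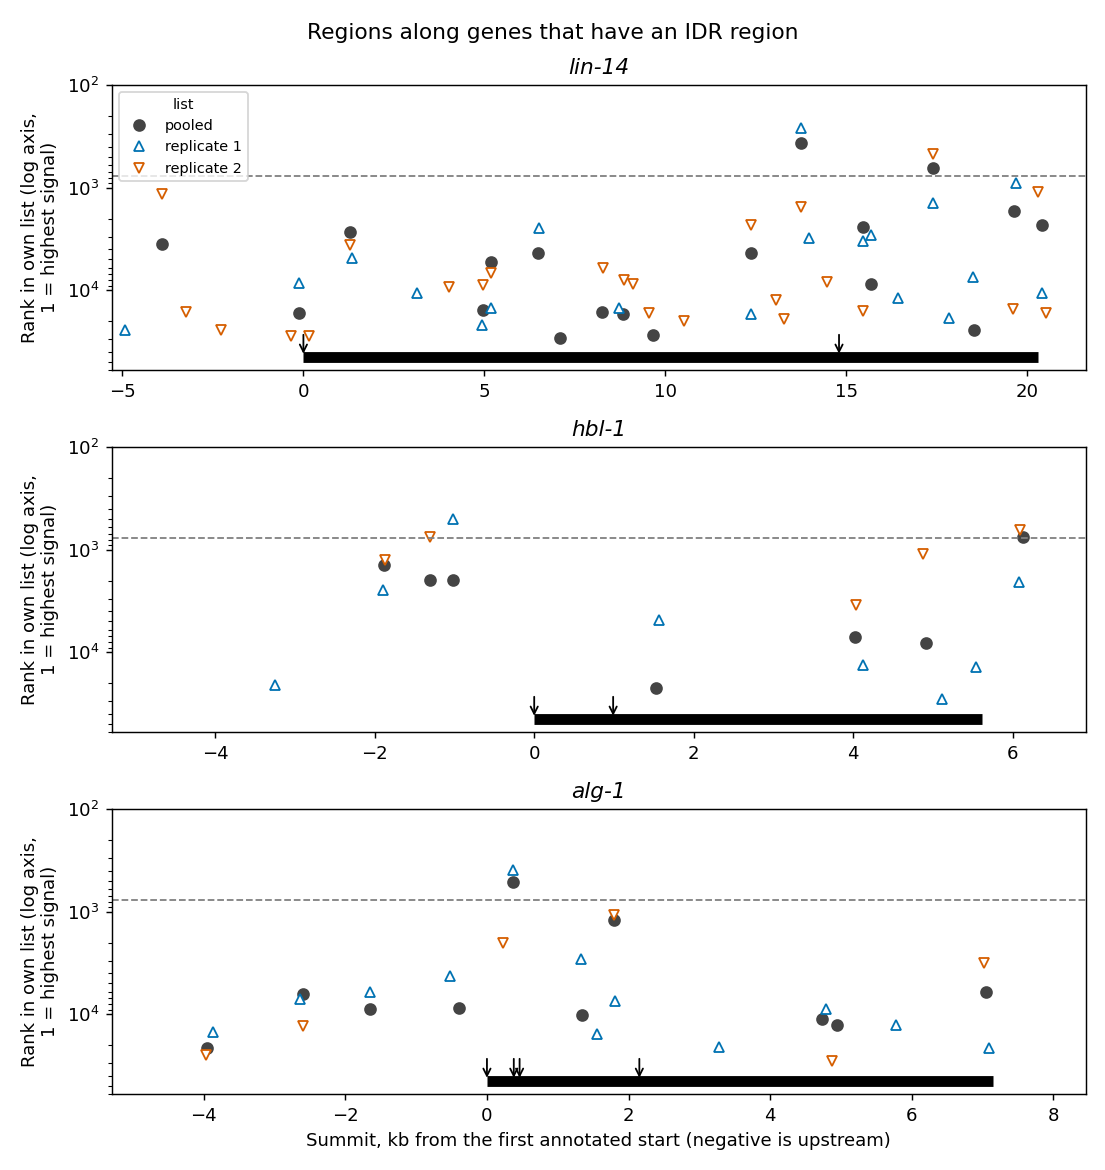
Rank of each region in its own list (log axis, strongest at the top) against the distance of its summit from the first annotated start in kb, for lin-14, hbl-1 and alg-1, with the gene as a bar, annotated starts as arrows and the last IDR rank dashed. Points above the dashed line stand at 2 places in lin-14, upstream and past the end of hbl-1, and near the start of alg-1, and the replicates differ in which of them they rank highest.

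alg-1 (WBGene00000105, chrX:13949110-13956261, plus strand) and alg-2 (WBGene00000106, chrII:873212-879885, plus strand) encode the main microRNA Argonautes, which overlap in function. At alg-1 the IDR region, chrX:13949313-13949652, had a pooled signal of 33.8 (rank 515), with 23 in replicate 1 (rank 395) and 10.3 in replicate 2 (rank 2023). Its summit was 373 bases past the first annotated start and 6 bases upstream of the start of another alg-1 transcript. A second pooled region, chrX:13950741-13951080, lay 351 bases upstream of the last of the 4 annotated starts, with a signal of 25.6 (rank 1200), 10.1 in replicate 1 (rank 7382) and 12.1 in replicate 2 (rank 1087). The replicates therefore had their highest alg-1 region at different starts. At alg-2 the highest pooled signal was 18.7 (rank 3635), in a coding exon of the neighbouring gene fbxc-51, with 13.6 in replicate 1 (rank 2300) and 4.4 in replicate 2 (rank 29631). Within alg-2 itself the highest was 14.9 (rank 9145, 3′ UTR), and none of the 5 pooled regions of alg-2 held WGATAR. A region of the replicate 1 list alone, in an intron of fbxc-51 at chrII:869481-869824 (8.97, rank 11169), held 4. The nearest IDR summit to alg-2 was 21 kb away.

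alg-1 is the neighbour of elt-3, the gene that the transgene also carries. The first start of alg-1 is 7894 bases past the end of elt-3, with no coding gene between, and elt-3 had 4 IDR regions in its own window, up to a signal of 92.5. Between the genes lay 5 pooled regions, of which 1 was an IDR region. That region, at chrX:13941289-13941628, had a pooled signal of 53.5 (rank 105), with 27.7 in replicate 1 (rank 215) and 23 in replicate 2 (rank 106), and held 1 WGATAR. Its summit was 7651 bases upstream of alg-1, 2651 bases outside the window, and 1733 bases from the nearest coding start, that of elt-3. In bins of 10 kb along X, the bin that holds the start of alg-1 had 7 pooled regions, 9 of replicate 1 and 4 of replicate 2, against a median of 3 in each list and a 95th percentile of 7 over 1771 bins. The elt-3 bin itself had 6 pooled regions, the bins centred 10 and 20 kb on its other side had 8 and 9, and the next bin past the start of alg-1 had 5. A bin 50 kb before elt-3 had 7, as many as that of alg-1, but the 2 differed in signal. The highest pooled signal was 16.8 in the bin 50 kb before elt-3 and 33.8 in that of alg-1. It was 92.5 in the elt-3 bin, 43.8 in the bin 20 kb before it and 37.7 in the bin 40 kb past it. The labels do not give the extent of the transgene, and its part in the alg-1 signal was not tested. Without alg-1 the count of genes with an IDR region was 2 of 7.

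**Figure D3:**
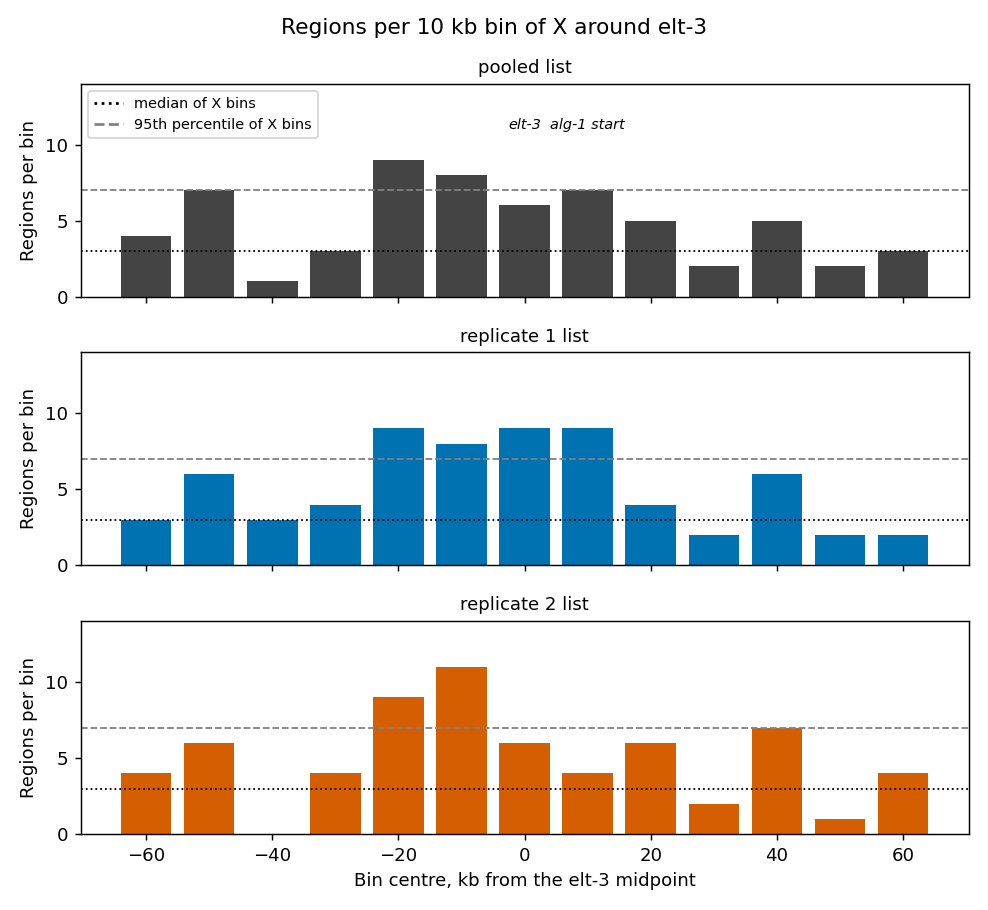
Number of regions per 10 kb bin of the X chromosome (y axis) against the distance of the bin centre from the elt-3 midpoint in kb, for the pooled list and each replicate, with the median (3, dotted) and 95th percentile (7, dashed) of all X bins. In the pooled list the bins 20 and 10 kb before elt-3 hold 9 and 8 regions, the elt-3 bin 6 and the bin with the alg-1 start 7, as many as the bin 50 kb before elt-3. The counts take no account of signal.

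The replicates did not rank the same sites highest. All 4 IDR regions contained a summit of both replicate lists, but 2 were top-ranked in replicate 1 alone and 2 in replicate 2 alone. None of the 4 was top-ranked in both (3 counts of the total leave room for up to 75%), beside 344 of all IDR regions (44.4%). The last top rank corresponds to a signal of 18.6 in replicate 1 and 13.3 in replicate 2, where a shared scale cannot be assumed. With each replicate's top-ranked regions in place of the IDR list, replicate 1 gave lin-14, hbl-1 and alg-1 (3 of 8, beside 6.18% of all coding genes), where hbl-1 counted through its upstream region. Replicate 2 gave lin-14 and hbl-1 (2 of 8, beside 6.35%), and its highest alg-1 region had rank 1087. Of the 62 pooled regions in the 8 windows, 31 (50%) contained a summit of both replicates, beside 33.7% of all pooled regions, 27 of 1 replicate and 4 of neither. These shares were not matched for signal. A pair of overlapping alg-1 regions took the same summits (rank 8890 in replicate 1, 28384 in replicate 2) and both are counted. With 2 replicates and no read counts, the difference between them could not be tested.

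**Figure D4:**
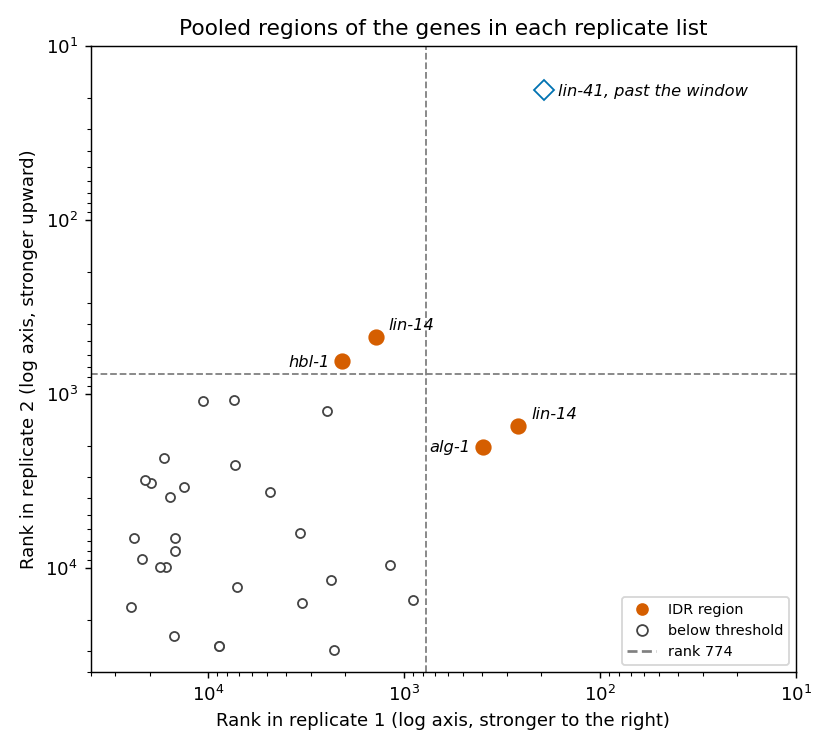
Rank in replicate 1 (x axis) against rank in replicate 2 (y axis), both on log axes with stronger regions to the right and top, for the 31 pooled regions of the 8 genes that contain a summit of both lists and for the IDR region past lin-41 (diamond). The 4 IDR regions (filled) each lie beyond the last top rank (dashed) in 1 replicate alone, while the lin-41 neighbour, ranked 194 and 18, lies beyond it in both.

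With all pooled regions considered, the median of the 8 genes stood above that of all coding genes, which was not tested. The strongest pooled region per gene had a median rank of 1440 and a median signal of 24.2 over the 8 genes, against a median rank of 7942 and signal of 15.4 over the 17991 coding genes with a pooled region. Windows of the 8 genes were longer, with a median of 12.9 kb against 8.03 kb. Over coding genes with windows of 10 to 20 kb, the median rank was 6098 and the signal 16.5. Ranked by this value, the order was lin-14 (365), alg-1 (515), hbl-1 (750), lin-29 (1344), lin-41 (1536), lin-28 (2268), alg-2 (3635) and lin-46 (10077). Pooled ranks carry no error of their own, so neighbours in this order cannot be told apart statistically. Introns held 24 of the 62 pooled regions (38.7%), upstream sequence 18 (29%), and 3′ UTRs and sequence past the gene end 6 each. Of the 58 pooled regions below the threshold, 20 held WGATAR (34.5%, exact interval 22.5 to 48.1), beside 40.3% of all pooled regions below it, and 5 held TGATAA (8.62%, 2.86 to 19), beside 21%.

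Other genes of the pathway had IDR regions as well. Of 22 further heterochronic genes 21 were matched to the annotation. The other, the microRNA gene let-7, had no matching entry and was not examined. Of the 21, 5 (23.8%, exact interval 8.22 to 47.2) had an IDR region in the same window. The share of all coding genes, given above, was 6.31%. The 21 include the microRNA genes lin-4, mir-48, mir-84 and mir-241, which that share does not cover, and mir-48 and mir-241 share their strongest region. Lists were chosen with results known, so the intervals are no test. mab-10, which encodes a cofactor of LIN-29, had its region 67 bases upstream of the start, at chrII:10527847-10528186. The pooled signal there was 33.9 (rank 512), with 27.6 in replicate 1 (rank 221) and 10 in replicate 2 (rank 2188). A pair of TGATAA sites on the minus strand lay 25 and 32 bases from the summit, shown here in 30 bases because the window touches a UTR.
mab-10, IDR region, chrII:10528030-10528059: tagcgttgcataTTATCAgTTATCAcctcc

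The microRNA gene mir-84 had an IDR region 565 bases upstream of its annotated hairpin, at chrX:16022873-16023212, with a pooled signal of 34.6 (rank 484), 22.1 in replicate 1 (rank 452) and 9.53 in replicate 2 (rank 2708), and no WGATAR. nhr-23, a nuclear hormone receptor gene of the molting cycle, had 3 IDR regions, the strongest at 51.3 (rank 116). blmp-1, a zinc finger transcription factor gene, had 1 in an intron (31.2, rank 650, 4 WGATAR), ranked 2080 in replicate 1 and 694 in replicate 2. nhr-85, a nuclear hormone receptor gene, had 1 at 31.3 (rank 644), but its summit was 809 bases from the start of hpo-2 and 3693 from that of nhr-85. Of 15 genes of microRNA processing and other Argonautes, 2 had an IDR region (13.3%, exact interval 1.66 to 40.5), and both regions lay nearer to another gene. The region of drsh-1, which encodes Drosha (34.7, rank 478), was 8 bases from the start of cox-5B, and that of alg-3, an Argonaute of spermatogenesis (44.6, rank 193), was in a 5′ UTR of dpy-20. The median rank of the strongest pooled region was 1140 over the 21 further pathway genes and 8508 over the 15 processing and Argonaute genes, with median windows of 11.5 and 10.4 kb.

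**Figure D5:**
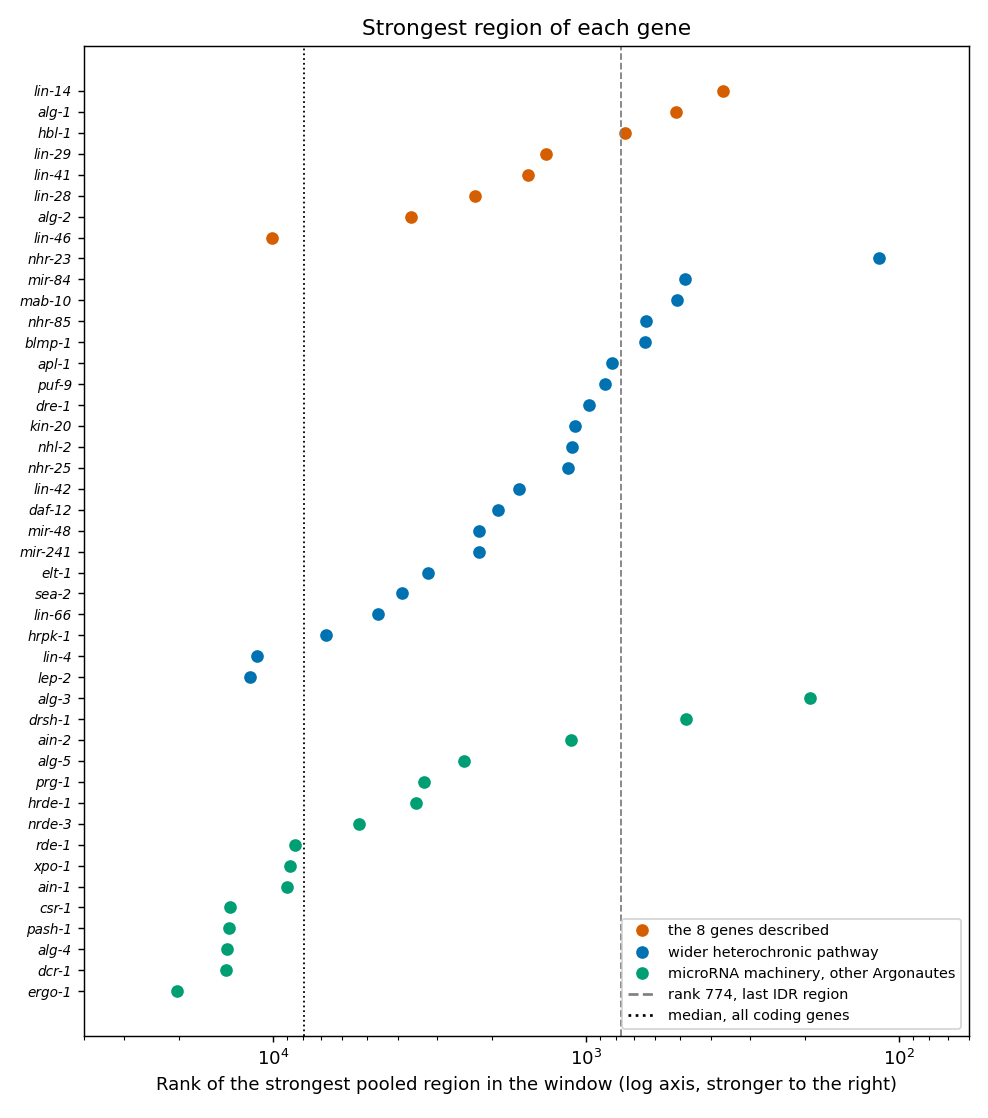
Rank of the strongest pooled region in the window of each gene (log axis, stronger to the right) for the 8 genes described, 21 further heterochronic genes and 15 genes of microRNA processing and other Argonautes, sorted within each group. Right of the last IDR rank (dashed) lie 3, 5 and 2 genes of these groups, and the dotted line is the median of all coding genes, 7942.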

How the data were processed

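Per the labels, the assay was ChIP-seq against ELT-3 in 2 biological replicates of L3 larvae, fragmented by sonication. Each deposited list holds 1 region per line with a signal that the authors' peak caller gave it. Per the descriptions deposited beside the lists, each replicate list came from that replicate's alignment and a further file, and the IDR list from the pooled and replicate lists. For the aligner, the peak caller and the IDR threshold, no name or value was given in the sources used here. Regions had a fixed width of 340 bases (344 and 336 in replicates 1 and 2) with the summit at the centre, so a summit stands for the region.

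Positions are 1-based on ce11, whose coordinates are those of WBcel235. All regions lay inside its chromosomes. Genes came from Ensembl release 115, sequence from RefSeq. The ce10 lists were not used. Location was read at the summit, in the order coding exon, 5′ UTR, 3′ UTR, intron. A pooled region took the signal of the strongest replicate summit inside it. Searches were tested on simulated data with Python 3.11.15, and intervals (scipy 1.17.1) cover counting error only. The genes, lists and rules were chosen with earlier results of these data known, and no test was run. All 8 genes, and every further pathway gene with an IDR region, are named. Strata by window length and chromosome, GATAAG and the region past lin-41 were chosen after values were seen.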

Additional observations from a re-analysis of the deposited data

How the results depend on the processing

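No paired analysis was possible because there is 1 group. The counts rest on 4 IDR regions and 2 replicates, with no read counts. Taking the strongest 50% of the IDR regions left 1 of the 8 genes, lin-14, and 1 region in place of 4. The count of genes with a region was 3 with windows starting 2000 or 1000 bases upstream and with overlap of 1 base in place of the summit. It was 2 with no bases past the gene end and with each region given to the nearest coding start, in both cases without hbl-1, and 2 of 7 without alg-1. Leaving out a replicate gave 2 to 3 genes and 3 regions. A window reaching 3000 bases past the gene end, added after the data were seen, gave 4 genes, with lin-41. The share of IDR regions with a match was 50% within 50 bases of the summit, 75% over the whole region and for TGATAA, 66.7% without alg-1, and 100% for GATA alone. None of the 4 IDR regions matched top-ranked regions of both replicates under any of the 3 overlap rules, against 25% with the 1500 strongest of each.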

Other observations

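A region of puf-9, which encodes a Pumilio-family RNA-binding protein known to act in repression of hbl-1, was top-ranked in both replicates but not in the pooled list. It was chosen after its values were seen. At chrX:5841148-5841487, 274 bases upstream of a puf-9 start, its pooled signal was 28.4 (rank 872), with 18.7 in replicate 1 (rank 755) and 16.4 in replicate 2 (rank 364), and it held 1 WGATAR. The summit fell in exons of W06B11.7 and W06B11.9 as well. The upstream pair of hbl-1 was also below the last IDR rank in the pooled list. Unlike the puf-9 region, each of that pair held a summit of 1 replicate alone, top-ranked there, with the summits 282 bases apart.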
